A study of Mus musculus with 2 samples.

Results

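The cells described here are *Gata1*- cells of chimeric mouse embryos in which *Spi1* was well detected and the myeloid genes *Fcer1g* and *Tyrobp* were low or absent. Members were chosen by a rule on measured values: tdTom+ cells with at least 3 spliced UMIs (unique molecular identifiers, each counted as 1 RNA molecule) of *Spi1* and fewer than 5 spliced UMIs of *Fcer1g* and *Tyrobp* together. The rule held for 339 of 8981 tdTom+ cells, out of 18233 cells in the series. They are called *Spi1*-high cells below.

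The study injected tdTomato-expressing embryonic stem cells of a single *Gata1*-mutant clone, which carries a frameshift of 38 bp in exon 4, into wildtype C57BL/6 blastocysts at E3.5. Whole embryos, 6 in all, were pooled and sorted into a tdTom+ fraction (injected *Gata1*- cells) and a tdTom- fraction (wildtype host cells), and each fraction gave 1 scRNA-Seq library on the droplet-based Chromium platform. The tdTom+ sample is labelled E8.5 and the tdTom- sample E8.6. Since the embryos were pooled and each fraction is 1 library, no test between conditions could be made and genotype cannot be told apart from library. The tdTom+ library held 167940767 spliced UMIs, with a median of 17598 per cell, and the tdTom- library 157174026, with a median of 15996. Cell barcodes found in both libraries numbered 18, and 0 of these were *Spi1*-high cells.

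*Spi1* encodes PU.1, an ETS-family transcription factor needed for the myeloid and lymphoid lineages. *Gata1* encodes a zinc-finger factor needed for erythroid and megakaryocyte maturation, and each of these proteins is known to bind and oppose the other in blood progenitors. At this stage the yolk sac makes primitive erythroid cells, megakaryocytes and early myeloid cells, some of them by way of endothelium with blood-forming capacity. On GRCm38 the annotation places *Spi1* on chromosome 2 (91082390 to 91115756, plus strand), *Laptm5* on chromosome 4 (130913125 to 130936141, plus strand), *Rac2* on chromosome 15 (78559167 to 78572783, minus strand), *Myb* on chromosome 10 (21124935 to 21160984, minus strand) and *Gata1* on chromosome X (7959260 to 7978071, minus strand).

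The *Spi1*-high cells were 3.77% of the tdTom+ library (exact binomial 95% interval, 3.39 to 4.19). This interval and all others given here cover counting error only, since cells of 1 library are not replicates. Their median was 23473 spliced UMIs per cell, from 3617 to 56113, above the median of the library. Most sat close to the lower edge of the rule: 101 cells held 3 *Spi1* UMIs, 62 held 4 and 53 held 5, with a median of 5 and a highest value of 21. On the other axis, 229 cells (67.6%) held 0 UMIs of *Fcer1g* and *Tyrobp*, and 11 cells held 4, the highest value the rule admits. Scrublet called 35 of the 339 cells doublets (10.3%, 7.30 to 14.1), a share close to the 10.7% (9.08 to 12.5) of other *Gata1*- blood cells.

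**Figure D1:**
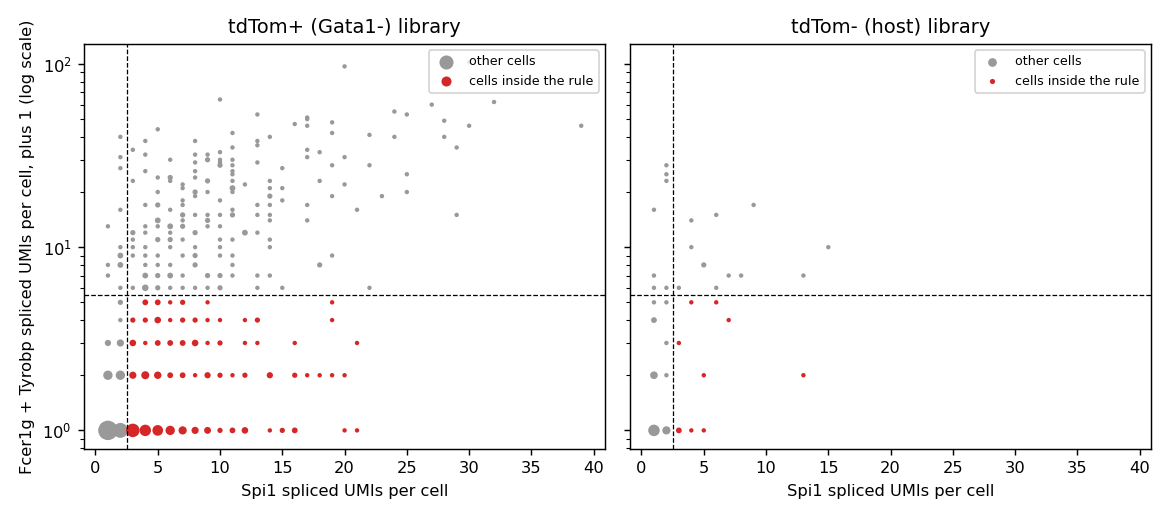
Spliced UMIs of *Spi1* per cell (horizontal axis) against the summed UMIs of *Fcer1g* and *Tyrobp* plus 1 (vertical axis, log scale), for all cells with at least 1 *Spi1* UMI in the tdTom+ (left) and tdTom- (right) library. The area of a point grows with the square root of the number of cells at that position, dashed lines are the limits of the rule, and red points are the 339 tdTom+ and 11 tdTom- cells inside it.

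Cells just inside and just outside each limit of the rule were set side by side. Among tdTom+ cells that passed a blood gate (at least 5 UMIs over *Gfi1b*, *Nfe2*, *Lyl1*, *Tal1*, *Klf1* and *Smim1*) and lacked an endothelial gate (under 5 UMIs over *Cdh5*, *Kdr* and *Emcn*), the 139 cells with 2 *Spi1* UMIs, just outside, had 57.2 CPM (counts scaled to 1e+06 spliced UMIs) of *Laptm5* and 34.4 CPM of *Rac2*. The 91 cells with 3 *Spi1* UMIs, just inside, had 60.4 CPM and 39.1 CPM, and the 879 cells with 0 *Spi1* UMIs had 15.9 CPM and 12.8 CPM. Both genes were thus already higher at 2 *Spi1* UMIs than at 0. At the other edge, the 31 cells with 3 or 4 UMIs of *Fcer1g* and *Tyrobp* had 72.6 CPM of *Rac2* and 97.6 CPM of *Alox5ap*, and the 33 excluded cells with 5 or 6 had 207 CPM and 176 CPM. *Laptm5* was at 148 CPM inside and 151 CPM outside this limit. Of the embryonic globins, *Hba-x* was at 1455 CPM inside and 296 CPM outside, and *Hbb-bh1* at 3185 CPM and 3178 CPM.

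The labelled markers were present. *Laptm5*, a lysosomal adaptor of blood cells, was at 97.5 CPM (91.0 to 104), *Rac2*, a small GTPase of blood cells, at 67.4 CPM (61.9 to 73.1) and *Myb*, a transcription factor of blood progenitors, at 154 CPM (146 to 163). At least 1 UMI of *Laptm5* was found in 79.9% of the *Spi1*-high cells, of *Rac2* in 59.6% and of *Myb* in 305 of 339 cells. In tdTom+ neural cells, which should lack them (1093 cells, median 18421 UMIs against 23473), the shares were 1.10%, 0.915% and 5.03%. With each cell thinned to 5000 UMIs, the shares in the *Spi1*-high cells were 40.5%, 26.3% and 51.8%, and in the neural cells 0.183%, 0.274% and 2.20%. All 3 genes were found together in 164 of 339 *Spi1*-high cells (48.4%) and in 143 of 1287 other *Gata1*- blood cells (11.1%), or 9.76% and 0.546% after thinning.

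Many genes of mature myeloid cells were not detected. Of 24 listed genes of myeloid maturation, 13 had 0 UMIs among the 8461990 of the *Spi1*-high cells, which allows up to 3 counts each, against 14 in other *Gata1*- blood cells and 15 in neural cells. These include the macrophage genes *C1qa*, *Adgre1*, *Cx3cr1* and *Fcgr1*. The macrophage growth factor receptor *Csf1r* had a UMI in 3 of 339 cells, the pan-leukocyte phosphatase *Ptprc* in 3, and the myeloid factors *Cebpa* and *Irf8* in 6 and 1. In neural cells these 4 genes had a UMI in 2, 1, 5 and 44 of 1093 cells. Summed over the list, the level was 35.5 CPM in the *Spi1*-high cells, most of it *Fcer1g*, against 6.06 CPM in other *Gata1*- blood cells, 1106 CPM in the 203 tdTom+ cells beyond the limit on *Fcer1g* and *Tyrobp* and 2.94 CPM in neural cells. The rule fixes most of the contrast with the 203 cells, since *Fcer1g* (635 CPM there) and *Tyrobp* (274 CPM) are in the list.

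The cells were mixed in their blood and endothelial genes. The blood gate marks blood cells and not a progenitor state, since host blood cells rich in globin pass it too. Blood gate genes were at 5 UMIs or more in 325 of 339 cells, but 34 cells passed the endothelial gate, 27 of them together with the blood gate and 7 without it. Cells also differed in the globin share of their UMIs. It fell below 0.2% in 98 of the *Spi1*-high cells (28.9%), with a median of 0.0260%, near the 0.0150% of neural cells, and it was 0.2% or more in the other 241 (71.1%), with a median of 1.47%. The limit of 0.2% was set after the values were seen, and 37 cells lay between 0.1% and 0.4%. All 1093 neural cells of the library were below it, as were 11.6% of other *Gata1*- blood cells and 74.4% of the *Spi1*-positive myeloid cells.

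Of the 34 cells that passed the endothelial gate, 31 were in the globin-low set. *Cd34*, a surface glycoprotein of endothelium and early blood cells, was at 133 CPM (118 to 149) in the globin-low cells and at 1.61 CPM (0.773 to 2.96) in the globin-carrying cells. *Cdh5*, the cadherin of endothelial junctions, was at 65.6 CPM (55.5 to 77.1) and 3.22 CPM (1.97 to 4.98), and *Kdr*, a VEGF receptor, at 66.9 CPM (56.7 to 78.5) and 7.09 CPM (5.15 to 9.52). Levels of these genes were thus higher in the globin-low set, although 84 of its 98 cells passed the blood gate and 31 the endothelial gate. The globin-low cells also had more of *Hmga2*, a chromatin protein of early embryonic cells (618 CPM against 102 CPM), *Hapln1*, a matrix link protein (265.5 CPM against 7.09 CPM), the integrin gene *Itga2b* (56.7 CPM against 8.70 CPM), and *Alox5ap*, which serves leukotriene synthesis (96.6 CPM against 10.5 CPM).

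In the globin-carrying cells other genes were higher, although myeloid and granule genes went in both directions. *Plac8*, a gene of early myeloid progenitors, was at 256 CPM (243 to 268) against 117 CPM (103 to 132) in the globin-low cells. The mast cell protease gene *Cpa3* was at 40.3 CPM (35.4 to 45.6) against 9.31 CPM (5.76 to 14.2), and *Csf2rb*, a shared receptor chain for IL-3, IL-5 and GM-CSF, at 33.8 CPM (29.4 to 38.7) against 3.10 CPM (1.25 to 6.39). The erythroid factor *Klf1* was at 80.7 CPM (73.8 to 88.1) against 16.4 CPM (11.5 to 22.6). The myeloid factor *Cebpb* went the other way, at 18.9 CPM in the globin-carrying and 62.9 CPM in the globin-low cells. So did the serine protease gene *Prtn3* (9.02 CPM and 18.6 CPM) and the leukocyte genes *Coro1a* (15.8 CPM and 37.2 CPM), *Was* (39.8 CPM and 101 CPM) and *Ptpn6* (50.4 CPM and 69.2 CPM). The granule gene *Srgn* leaned to the globin-carrying cells, with intervals of 17.2 to 24.5 CPM and 7.89 to 17.4 CPM. *Laptm5* was alike in both sets, at 97.2 CPM and 98.4 CPM, as was *Runx1*, at 97.3 CPM and 106 CPM. *Myb* was at 166 CPM in the globin-carrying and 120 CPM in the globin-low cells, and *Rac2* at 74.9 CPM and 46.5 CPM. Scrublet called 25 of the 241 and 10 of the 98 cells doublets.

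**Figure D2:**
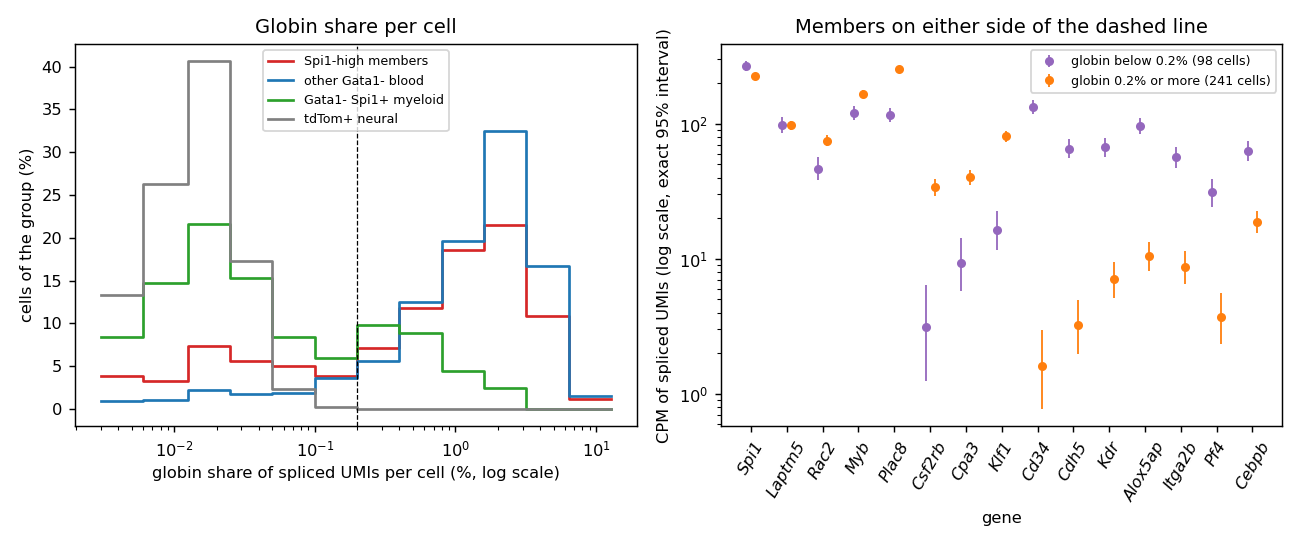
Left, share of the cells of each group (vertical axis, %) by the globin share of their spliced UMIs (horizontal axis, %, log scale), with cells beyond the ends counted in the end bins and the limit of 0.2% dashed. Right, CPM (log scale) with exact 95% intervals in the 98 globin-low (purple) and 241 globin-carrying (orange) *Spi1*-high cells: *Laptm5* is alike, *Cd34*, *Cdh5* and *Kdr* are higher in the globin-low cells, and *Plac8*, *Csf2rb* and *Cpa3* in the globin-carrying cells.

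The same rule found 11 of 9252 host cells (0.119%, 0.0594 to 0.213). Of these host cells 10 were globin-low, and 8 of the 11 passed the endothelial gate. Only 1 host cell under the rule was globin-carrying, with a globin share of 22.1%. The host cells under the rule had 121 CPM of *Cdh5*, 181 CPM of *Kdr* and 242 CPM of *Lyve1*, a gene of yolk sac endothelium. Globin-carrying *Spi1*-high cells therefore made up 2.68% of the tdTom+ library (2.36 to 3.04) and 0.0108% of the tdTom- library (0.000274 to 0.0602). Globin-low cells made up 1.09% (0.887 to 1.33) and 0.108% (0.0518 to 0.199). As shares of cells that passed the blood gate, globin-carrying cells were 241 of 1985 tdTom+ cells, or 12.1% (10.7 to 13.7), and 1 of 1868 tdTom- cells, or 0.0535% (0.00136 to 0.298). These shares are not of like cells. The median globin share was 8.52% in other blood cells of the host and 1.63% in other *Gata1*- blood cells. The 1 host cell also lay above the highest globin share of the *Spi1*-high cells, 9.07%. Among the 1676 other blood cells of the host, *Spi1* was at 1.62 CPM (1.23 to 2.09) and *Laptm5* at 2.45 CPM. With so few host cells, further genes were not compared.

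To ask what else differed in *Gata1*- blood, the *Spi1*-high cells were compared within the tdTom+ library with 1287 other blood cells that had under 3 *Spi1* UMIs, passed the blood gate and did not pass the endothelial gate (median 21993 UMIs). A gene was called where the log2 fold was at least 1 in size and its exact conditional 95% interval excluded 0, among 9108 genes with at least 100 UMIs over both groups. This called 264 genes higher (2.90% of those compared) and 96 lower (1.05%), and the median of all compared genes was 0.03 on the log2 scale. *Spi1* itself was at 237 CPM against 18.1 CPM, which the rule fixes.

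Most compared genes of leukocyte signalling and cytoskeleton were called higher. Of 46 listed genes, 20 had enough UMIs to be compared, the label's markers *Laptm5* and *Rac2* among them. Of these 20, 15 were called higher and 0 lower, with a median of 1.75, where 2.90% of all compared genes were called higher. The list was chosen with earlier results of these data known, and a gene can pass the minimum of UMIs through the group where it is high. *Laptm5* was higher by 1.95 (1.80 to 2.09) and *Rac2* by 1.98 (1.81 to 2.16). *Coro1a*, an actin regulator of leukocytes, was at 21.5 CPM against 1.72 CPM, a log2 fold of 3.64 (3.19 to 4.12). *Inpp5d*, the lipid phosphatase SHIP1, was higher by 2.78 (2.42 to 3.15), the adaptor *Sla* by 2.87 (2.56 to 3.19), the exchange factor *Vav1* by 1.89 (1.59 to 2.18) and the tyrosine phosphatase *Ptpn6* by 1.56 (1.38 to 1.74). *Alox5ap* had the largest log2 fold upward of all compared genes, 4.43 (3.98 to 4.90), at 33.4 CPM against 1.56 CPM. With the *Spi1*-high cells held to the same blood and endothelial gates, its log2 fold was 3.65, below *Npy* (3.90) and *Srgn* (3.83). In neural cells *Coro1a* was at 4.60 CPM, above its level in the other blood cells, so that low levels of this gene do not mark blood.

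Genes of granules and mast cells followed in part. *Prtn3*, a serine protease, was higher by 3.54 (2.94 to 4.18), *Srgn*, the granule proteoglycan, by 3.75 (3.25 to 4.29), *Plac8* by 1.38 (1.29 to 1.47) and *Cpa3* by 1.07 (0.85 to 1.29), which made 4 of 5 compared. *Mpo*, the peroxidase of neutrophil granules, was at 7.56 CPM against 0.596 CPM, with too few UMIs to be compared under the rule. The neutrophil, basophil and mast cell genes *Elane*, *Ctsg*, *Mcpt8*, *Ms4a2* and *Fcer1a* had 0 UMIs in both groups.

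Among 18 compared factors and receptors of the progenitor list, with a median of 0.74, 5 were called higher and 0 lower: *Cd34*, *Erg*, *Lyl1*, *Angpt1* and *Meis1*. *Lyl1*, a partner of the SCL complex and a gene of the blood gate, was at 117 CPM against 33.7 CPM, a log2 fold of 1.80 (1.67 to 1.92). *Myb* was higher by 0.73 (0.63 to 0.82) and the stem cell factor receptor *Kit* by 0.80 (0.70 to 0.91), short of the fold needed for a call. *Gata2* (117 CPM against 123 CPM), *Tal1* (271 CPM against 293 CPM) and the *Gata1* cofactor *Zfpm1* (251 CPM against 250 CPM) lay close together in both groups. Of 14 myeloid factors compared, *Cebpb*, *Cebpd*, *Etv6* and *Elf1* were called higher. Of 11 cytokine receptors, *Csf2rb* (1.39, 1.13 to 1.64), *Il4ra* and *Ifngr1* were called higher, while *Epor*, the erythropoietin receptor, was at 28.2 CPM against 45.3 CPM.

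Megakaryocyte and endothelial genes were also higher. Of 11 megakaryocyte genes compared, 8 were called higher, with *Plek*, a platelet kinase substrate, at 2.80 (2.38 to 3.24) and *Pf4*, a platelet chemokine, at 2.70 (2.19 to 3.22), and the list median was 1.22, or 1.09 in globin-carrying cells. Within the *Spi1*-high cells, *Plek* and *Pf4* were higher in the globin-low set. *Pf4* was at 31.0 CPM there and 3.71 CPM in the globin-carrying set, and *Plek* at 30.1 CPM and 11.4 CPM. Of 11 endothelial genes, 10 were called higher with a median of 2.06, or 1.37 in globin-carrying cells, and the comparison group had been held below the endothelial gate. Among the 298 *Spi1*-high cells held to the same gates, the median of the endothelial list was 0.43, and that of the leukocyte list 1.70.

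The comparison was then repeated on the globin-carrying cells of both groups. List medians for these cells use the genes compared over all cells, without a new minimum of UMIs. *Laptm5* was higher by 2.08 (1.92 to 2.25) there, *Rac2* by 2.07 (1.88 to 2.26), *Coro1a* by 3.63 (3.05 to 4.23), *Srgn* by 4.34 (3.74 to 5.00) and *Plac8* by 1.59 (1.49 to 1.68). These 5 genes thus differed about as much or more without the globin-low cells. *Alox5ap* went from 4.43 to 3.73, and the median of the leukocyte list from 1.75 to 1.52. *Cd34* went from 4.28 to 1.72 (0.37 to 3.02), *Ctla2a*, a protease inhibitor, from 3.43 to 0.99 (0.15 to 1.79), *Lyve1* from 3.08 to 0.88 (-1.71 to 3.01), and *Itga2b* from 0.92 to -0.21 (-0.66 to 0.22). For *Cd34*, *Ctla2a* and *Itga2b* the fold was thus smaller in globin-carrying cells, while the interval of *Lyve1* is too wide to show a difference.

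Of 27 erythroid genes compared, 5 were called lower (among them *Sptb*, *Ermap*, *Add2* and *Trim10*) and 0 higher, where 1.05% of all compared genes were called lower. The list median was -0.57, or -0.36 in the globin-carrying cells. *Trim10* was at 6.85 CPM against 24.7 CPM. None of the 9 compared globin genes was called. The embryonic alpha-type globin *Hba-x* was at 3132 CPM against 5724 CPM, and *Hbb-y*, an embryonic beta-type globin, at 1822 CPM against 1340 CPM. In tdTom+ neural cells, *Hba-x* was at 46.5 CPM and *Hbb-y* at 12.7 CPM.

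Other highly ranked genes were *Ptgs1*, the cyclooxygenase gene (4.07, 3.36 to 4.84), the neuropeptide *Npy* (3.74, 3.27 to 4.22), *Samsn1*, a signalling adaptor (3.09, 2.62 to 3.57), *Erg*, an ETS factor (3.14, 2.51 to 3.80), *Smagp* (3.01), *Arap3* (2.98) and *Eng*, a TGF-beta coreceptor of endothelium (2.90). *Npy* rested on few cells: 29 *Spi1*-high cells had a UMI, and 10 of them held 79.2% of its UMIs. For *Lyve1* these values were 25 cells and 78.9%. The genes with the largest folds downward were *S100g*, *Ttr*, *Rbp4*, *Afp*, *Apom*, *Apoa4*, *Apoa1* and *Spink1*, most of them known from visceral endoderm, with log2 folds from -5.54 to -3.45. In the other blood cells 10 cells held from 87.5% to 100% of the UMIs of each. With globin-carrying cells alone, the log2 fold of *Ttr* was -0.40 (-1.95 to 0.87). The cardiac list, called lower for 8 of 10 genes, had a median of -1.20 over all cells and of 1.03 in the globin-carrying cells. Few cells carried these genes: 10 *Spi1*-high cells held 86.9% of the UMIs of *Tnnt2* and 92.9% of those of *Myl7*. Below these ranked *Bcl11b* (-2.76), *Ankrd1* (-2.25), *Tdo2* (-2.24), *Add2* (-2.18), *Lhx1*, *Emx2* (-1.95) and *Trim10* (-1.85). In the other blood cells, 10 cells held 67.4% of the UMIs of *Ankrd1* and 87.7% of those of *Tdo2*. With globin-carrying cells alone, the log2 fold of *Ankrd1* was 0.48 (-0.02 to 0.97) and that of *Tdo2* -1.66 (-3.02 to -0.56). *Bcl11b*, a lymphoid and neural factor, had a UMI in 3 *Spi1*-high and 74 other cells, and *Emx2*, a homeobox gene, in 13 and 171.

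Cell cycle genes were alike. Of 40 S phase genes and 51 G2/M genes compared, 0 were called in either direction, with medians of -0.05 and 0.09. Of 14 cell cycle regulators, *Cdk6*, a kinase of progenitor cells, was called higher, at 31.6 CPM against 13.0 CPM (1.28, 1.05 to 1.51). Of 9 genes of the Bcl2 family, 0 were called, and the antiapoptotic *Mcl1* was at 218 CPM against 200 CPM.

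**Figure D3:**
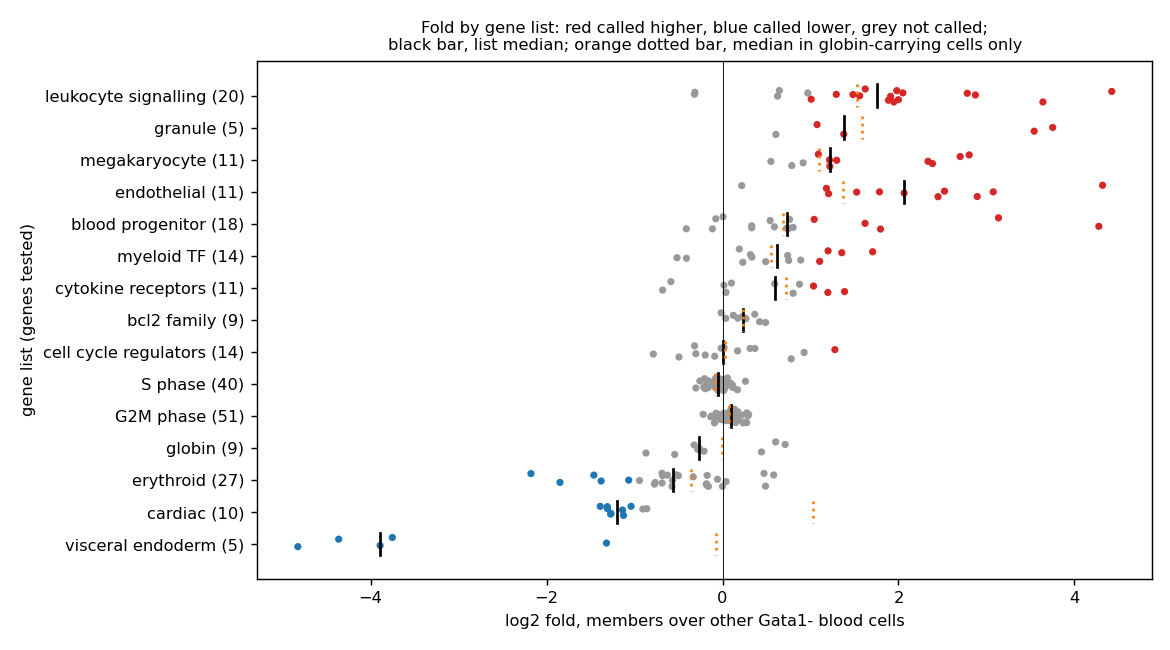
Log2 folds of *Spi1*-high over other *Gata1*- blood cells (horizontal axis) for the compared genes of 15 lists (vertical axis, number of genes in brackets), red where called higher and blue where called lower, with vertical jitter. Black bars are list medians and orange dotted bars the medians in globin-carrying cells, taken over the same genes without a new minimum of UMIs. Leukocyte and granule genes stay to the right in both. The cardiac median moves from -1.20 to 1.03, with UMIs held by few cells. The visceral endoderm median moves from -3.89 to -0.07, which is the value of *Rbp4* (-1.39 to 1.06).

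Levels also varied among the *Spi1*-high cells with their *Spi1* count. Since *Spi1* CPM falls with depth when the count is held at a minimum (Spearman's rho over the 339 cells, -0.51), cells were set in 3 classes by *Spi1* UMIs, with 163 cells at 3 to 4, 131 at 5 to 9 and 45 at 10 or more. The medians of depth were 23296, 22962 and 25216 UMIs. *Laptm5* was at 65.9 CPM (58.2 to 74.3), 111 CPM (99.5 to 123) and 166 CPM (144 to 190) in the 3 classes. *Rac2* was at 44.3 CPM (38.0 to 51.4), 68.1 CPM (59.4 to 77.7) and 140.4 CPM (120.2 to 163). Both stepped up without overlap of the intervals, which leave out variation between cells. The classes are cut on the *Spi1* count that the rule uses, so these steps are a description only.

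Granule genes did not all step alike. *Srgn* was at 4.01, 28.7 and 37.5 CPM, and *Prtn3* at 3.51, 15.1 and 28.6 CPM. *Mpo* was at 4.76 CPM and 4.62 CPM in the lower classes and 24.5 CPM in the class with 10 or more. *Plac8* was at 171, 219 and 374 CPM, and *Cpa3* was highest in the lowest class, at 42.8, 19.4 and 30.2 CPM. Of the leukocyte signalling genes, *Coro1a* was at 8.52, 26.2 and 51.4 CPM and *Ptpn6* at 37.8, 63.2 and 92.2 CPM. *Csf1r*, at 0.501, 0 and 0.816 CPM, was at the level of single UMIs throughout, and *Cebpa* reached 3.26 CPM, or 4 UMIs, in the highest class.

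*Gata2*, *Cited4* and *Cpox* stepped down. *Gata2* was at 137 CPM (126 to 149), 111 CPM (99.8 to 123) and 67.7 CPM (54.0 to 84.0), and *Cited4*, a transcriptional coactivator, at 196, 127 and 60.4 CPM. *Cpox*, an enzyme of heme synthesis, was at 269, 169 and 100.4 CPM. By single *Spi1* UMIs, in the gated tdTom+ cells used at the edge of the rule, *Gata2* did not fall throughout. At 0, 1, 2, 3, 4, 5 and 6 *Spi1* UMIs, *Gata2* was at 117, 135, 141, 131, 168, 121 and 127 CPM there. *Tal1* (273, 266 and 276 CPM) and *Runx1* (95.4, 104 and 101 CPM) were level over the classes, and *Myb* was at 138, 167 and 171 CPM.

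Of the 241 globin-carrying cells, 122, 87 and 32 fell in the classes. *Rac2* was at 48.7 CPM (41.3 to 57.0), 73.0 CPM (62.1 to 85.3) and 175 CPM (148 to 205), *Srgn* at 3.48, 34.0 and 49.5 CPM, and *Mpo* at 1.58, 4.59 and 31.1 CPM. The intervals of *Rac2* did not overlap there, while those of *Srgn* overlapped between the upper and those of *Mpo* between the lower classes. *Gata2* was at 138 CPM (125 to 151), 118 CPM (104 to 133) and 85.3 CPM (67.0 to 107), with overlap between adjacent classes. *Hba-x* was at 5799, 2624 and 2614 CPM. *Hbb-bh1*, by contrast, was at 11112, 8955 and 10286 CPM. Genes of the myeloid limit and of endothelium moved with the classes too, and their part in the steps was not tested. Cells with 0 UMIs of *Fcer1g* and *Tyrobp* were 132 of 163, 79 of 131 and 18 of 45. Over all *Spi1*-high cells, *Cd34* was at 22.3, 41.0 and 71.8 CPM, and 12, 15 and 7 cells of the classes passed the endothelial gate. In the globin-carrying cells *Tyrobp*, limited by the rule, was at 0.316, 5.51 and 12.7 CPM.

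**Figure D4:**
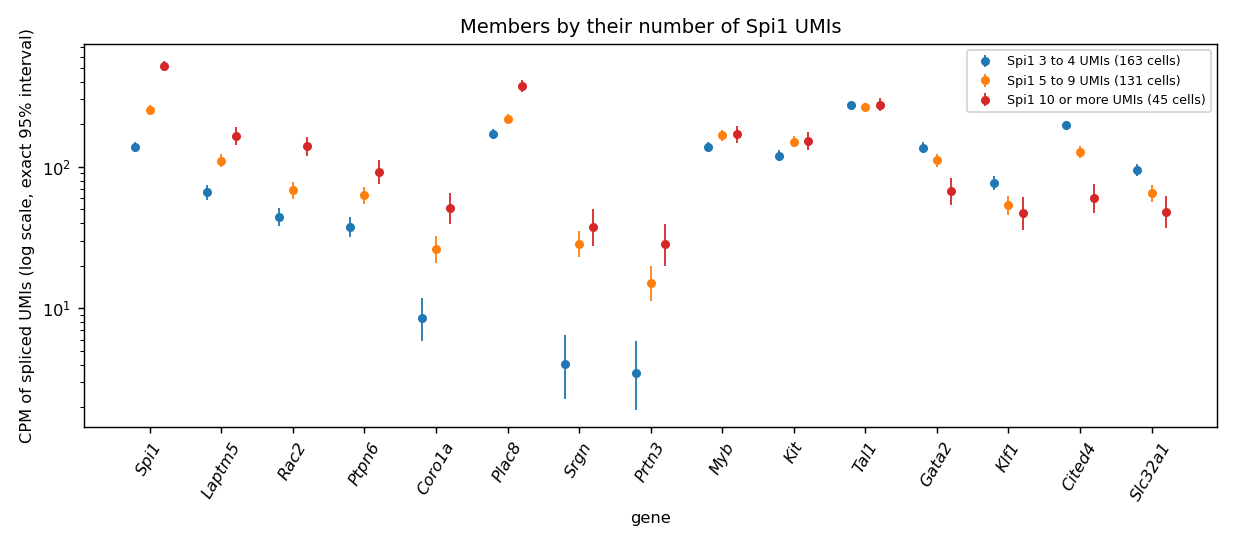
CPM of spliced UMIs (vertical axis, log scale) with exact 95% intervals for 15 genes (horizontal axis) in *Spi1*-high cells with 3 to 4 (blue), 5 to 9 (orange) and 10 or more (red) *Spi1* UMIs. From *Laptm5* to *Prtn3* levels rise from class to class, with overlapping intervals in the upper classes for *Srgn* and *Prtn3*, *Tal1* is level, and *Gata2* and *Cited4* step down.

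Across the other edge of the rule, the *Spi1*-high cells were compared with the 203 *Spi1*-positive myeloid cells of the same library (at least 5 UMIs of *Fcer1g* and *Tyrobp*, median 19563 UMIs). Of 7358 genes compared, 137 were called higher (1.86%) and 415 lower (5.64%). *Spi1* was at 237 CPM against 511 CPM. *Laptm5* was at 97.5 CPM against 206 CPM and *Rac2* at 67.4 CPM against 352 CPM, so that for both genes the *Spi1*-high cells lay between the other blood cells and the myeloid cells. *Myb* was higher than in the myeloid cells by 0.51 (0.35 to 0.66), *Kit* lay close, at 136 CPM against 134 CPM, and *Gata2* was higher by 1.62 (1.38 to 1.86).

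Erythroid genes were higher than in the myeloid cells, with 15 of 21 called, and so were 7 of 8 globin genes. *Klf1* was at 63.6 CPM against 7.80 CPM (3.03, 2.53 to 3.57), and *Hba-x* was higher by 5.20 (5.05 to 5.35). The other leading genes were *Fezf2* (5.70), *Fgf15* (3.98), *Hba-a1* (3.83), *Cpne7* (3.83), *Hbq1b* (3.69), *Hba-a2* (3.60) and the glutamate transporter *Slc1a3*, with 155 UMIs against 10. *Fgf15*, a growth factor, was at 54.1 CPM with a UMI in 151 *Spi1*-high cells, and *Fezf2*, a forebrain factor, in 24 of them, where 10 cells held 78.2% of its UMIs.

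In the other direction, 23 of 28 leukocyte signalling genes, 7 of 14 myeloid factors and all 5 compared genes of myeloid maturation were called lower, *Fcer1g* and *Tyrobp* among them by the rule. *Cebpa*, the factor of granulocyte and monocyte fate, was at 1.06 CPM against 22.9 CPM (-4.43, -5.60 to -3.45), and the Fc receptor *Fcgr3* at 3.66 CPM against 79.1 CPM (-4.43, -5.01 to -3.90). The leading genes were *Ccl3*, a chemokine (-8.90), *Hpgd* (-6.39), *BC035044* (-5.27), *Pstpip1* (-5.11), *Fbp2* (-4.97), *Apbb1ip* (-4.64) and *Siglecf* (-4.43). *Stfa1* had 0 UMIs in the *Spi1*-high cells, so that with a floor of 3 counts for the group its log2 fold was -6.36 or below. All of its UMIs in the myeloid cells were in 7 cells. Of 12 endothelial genes, 9 were lower than in the myeloid cells, of which 51 of 203 passed the endothelial gate.

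**Figure D5:**
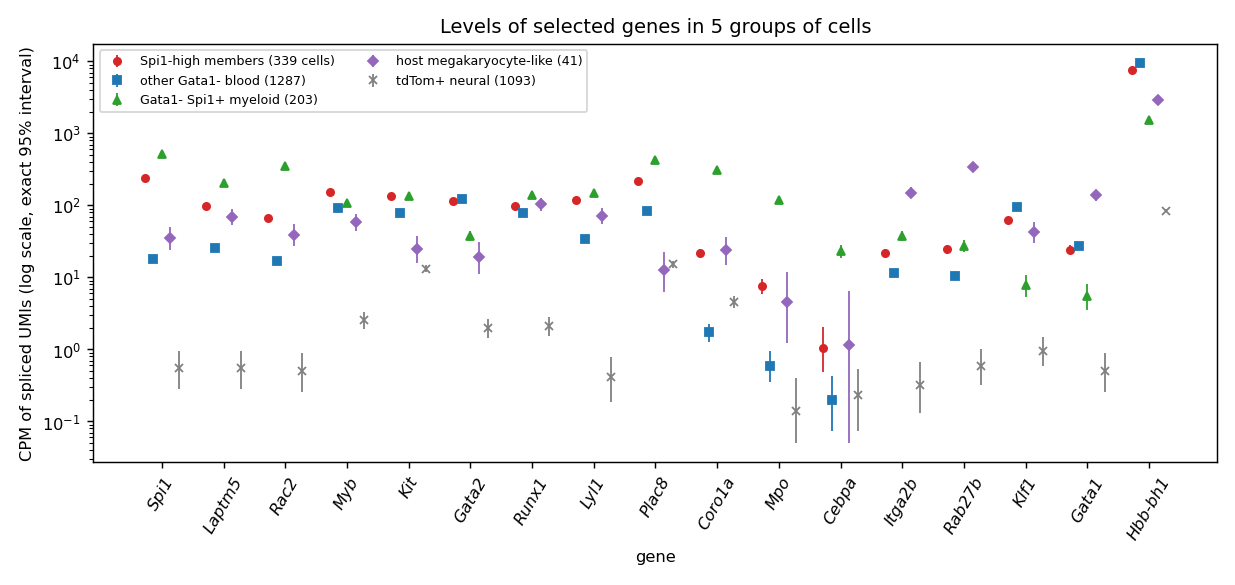
CPM of spliced UMIs (vertical axis, log scale) with exact 95% intervals for 17 genes (horizontal axis) in *Spi1*-high cells (red), other *Gata1*- blood cells (blue), *Spi1*-positive myeloid cells (green), host megakaryocyte-like cells (purple) and tdTom+ neural cells (grey), with values under 0.05 drawn there. For *Laptm5*, *Rac2*, *Lyl1*, *Plac8*, *Coro1a* and *Mpo* the red points lie between blue and green, and *Klf1* and *Hbb-bh1* lie near the blue points. The position of *Spi1* above the blue points is fixed by the rule.

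The remaining comparison was with 41 host cells that had at least 5 UMIs over the platelet genes *Gp1bb*, *Gp9*, *Gp5*, *Gp6* and *Rab27b* (median 19870 UMIs). Here genotype and library cannot be told apart. Of 6501 genes compared, 210 were called higher in the *Spi1*-high cells (3.23%) and 232 lower (3.57%). *Laptm5* (97.5 CPM against 69.9 CPM) and *Rac2* (a log2 fold of 0.79, 0.29 to 1.33) differed by less than the fold for a call, while *Kit* was higher by 2.43 (1.83 to 3.11), *Gata2* by 2.59 (1.90 to 3.37) and *Plac8* by 4.12 (3.27 to 5.12). With cells thinned to 5000 UMIs, the log2 folds were 1.79 for *Rac2*, past the size for a call, 1.71 for *Kit* and 1.27 for *Gata2*.

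Megakaryocyte genes were lower in the *Spi1*-high cells, with 7 of 9 called, where 3.57% of all compared genes were called lower. The host cells were chosen by their platelet genes, so this direction was favoured in advance, and *Rab27b* (-3.78) was part of the gate. *Fermt3*, an integrin activator, was at 34.6 CPM against 298 CPM (-3.10, -3.35 to -2.86), *Pf4* at 11.0 CPM against 75.6 CPM and *Itga2b* at 21.5 CPM against 150 CPM (-2.80, -3.13 to -2.47). *Sla2* (-3.09), *Fyb* (-3.87), the clotting factor *F10* (-3.31) and *1700027J19Rik* (-2.98) were also among the leading genes. The imprinted genes *Cdkn1c*, *Grb10* and *Phlda2* and the non-coding *Xist* led the list with them, but between neural cells of both libraries their log2 folds were -5.47, -4.75, -2.90 and -5.38. For *Xist*, the paper describes the injected stem cell line as male.

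Among genes higher than in the host megakaryocyte-like cells were *Fgf15* (5.56), *Depdc7* (4.03), *Ppp1r3g* (3.99), *Wnt2*, a signalling ligand (3.96), *Gsn*, an actin-severing protein (3.78), and *Ecscr* (3.67). Each of these had only 1 or 2 UMIs in the host cells and passed the minimum of UMIs through the *Spi1*-high cells. Their folds are therefore imprecise, with intervals of 1.53 to 9.34 for *Depdc7* and 1.16 to 8.98 for *Ecscr*. With the *Spi1*-high cells held to the blood and endothelial gates, *Ecscr* was at 2.02. *Slc32a1*, a vesicular transporter of inhibitory neurotransmitters, was at 76.9 CPM with 0 UMIs in the host cells, or at least 4.48 higher on the log2 scale with the same floor. It had a UMI in 206 of 339 *Spi1*-high cells and in 1030 of 1287 other *Gata1*- blood cells, where its level was 118 CPM. For the cardiac genes *Tnnt2* (5.30) and *Myl7* (3.81), 10 *Spi1*-high cells held 86.9% and 92.9% of the UMIs.

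*Gata1* transcripts were still found in the *Spi1*-high cells, at 24.2 CPM against 27.5 CPM in the other *Gata1*- blood cells (-0.18, -0.41 to 0.04), 139 CPM in the host megakaryocyte-like cells and 120 CPM in other host blood cells. The unspliced share of *Gata1* UMIs was 54.3% (49.6 to 59.0) in the *Spi1*-high cells and 59.2% (57.0 to 61.3) in the other *Gata1*- blood cells, against a share with an interval of 7.23% to 8.81% in host blood cells and 2.42% (0.502 to 6.91) in host megakaryocyte-like cells. Over all genes the unspliced share was 11.6% in the *Spi1*-high and 10.4% in host blood cells. Most *Gata1* UMIs of the *Spi1*-high cells were thus unspliced, as in the other *Gata1*- blood cells. For *Spi1* the unspliced share was 3.70% (2.93 to 4.60) in the *Spi1*-high cells, 6.97% (5.05 to 9.34) in the other *Gata1*- blood cells and 5.80% (4.89 to 6.81) in the *Spi1*-positive myeloid cells. The rule uses spliced *Spi1* UMIs, which lowers this share in the *Spi1*-high and raises it in the other blood cells, so nothing is read from the difference.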

How the data were processed

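Per the labels the reads were mapped to mm10 (GRCm38) by Cell Ranger 3.0.2. The authors then split the molecules by velocyto into a spliced and an unspliced layer, which were deposited as tables of raw UMI counts. The deposited quality metrics give the percent of mitochondrial UMIs, with a median of 2.73% in the *Spi1*-high cells. The count tables hold 18233 cells and 29453 genes, and no cell was removed. For each group the counts of its cells were added up and given as CPM of spliced UMIs with exact Poisson intervals, and folds with exact conditional intervals. No p-value is given, since each fraction is 1 library. Doublets were called with Scrublet in each library and only left out as an alternative. For shares, cells were thinned to 5000 UMIs. Python 3.11.15, numpy 2.4.6, scipy 1.17.1, pandas 2.3.3 and scanpy 1.11.5 were used. On simulated data for the comparison with other blood cells (9120 genes), 95.8% of intervals held the true fold. These counts were drawn from the Poisson model that the intervals assume, without variation between cells. The share therefore checks the calculation only, and not whether the intervals suit these data.

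The members, gates and gene lists were chosen with earlier results of these data known. Named genes are the label's markers, *Gata1*, the genes of the rule, up to 6 genes per list with the most UMIs or largest fold, and the 15 (other blood cells) or 10 (other comparisons) genes per direction with the largest fold. Genes described only by globin share or *Spi1* class, among them *Hmga2*, *Hapln1* and *Cpox*, were chosen after their values were seen, and so were the globin limit and the repeat in globin-carrying cells. Alternatives tried were the limits of the rule and gates, the minimum of UMIs, scaling, doublets, unspliced UMIs, thinning and free RNA. The authors' cell types were not used here. A gene that would be named on its list's values is not reported here.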

Additional observations from a re-analysis of the deposited data

How the results depend on the processing

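The share of tdTom+ cells under the rule was 3.77% and moved with its limits: 5.55% with at least 2 *Spi1* UMIs, 2.65% with 4, 1.96% with 5, 4.40% with *Fcer1g* and *Tyrobp* below 10, and 1.09% of cells thinned to 5000 UMIs. Counts of called genes moved with the minimum of UMIs. Against other *Gata1*- blood cells, a minimum of 20 UMIs gave 575 higher and 215 lower and a minimum of 500 gave 71 and 28. Against myeloid cells these were 296 and 916, and 39 and 103. Against host megakaryocyte-like cells, 540 were lower at 20 UMIs, and 51 were higher and 38 lower at 500. The 96 genes lower than in other blood cells became 408 with a blood gate of 3 UMIs, 48 with 10, 148 for cells with 5 or more *Spi1* UMIs and 35 with globin-carrying cells in both groups, an alternative chosen after seeing the data. With *Spi1*-high cells held to the gates, also added after seeing the data, 180 genes were higher and 102 lower. Scaling to the median ratio, leaving out doublets and adding unspliced UMIs moved no count by over 1.5 times. The genes behind the counts changed more. Against other blood cells, 68 of the 96 lower genes were called again without doublets and 81 with unspliced UMIs. Of the 264 higher genes, 224 and 236 were called again. The log2 folds of *Spi1*, *Laptm5*, *Rac2*, *Myb*, *Gata1*, *Gata2*, *Kit* and *Pf4* in the 3 comparisons were recomputed as means over cells, thinned to 5000 UMIs, with the level of neural cells subtracted, and with unspliced UMIs. Of these 96 values, 82 stayed within the interval of the reported fold, 14 moved beyond it and 0 of the called ones changed sign. Against host megakaryocyte-like cells thinning moved *Gata2* to 1.27, *Kit* to 1.71, *Rac2* to 1.79 and *Spi1* to 4.17, subtracting the level of neural cells moved *Kit* to 3.30, and adding unspliced UMIs moved *Gata1* to -1.40. The cause of these shifts was not tested. No paired analysis was possible because each fraction is 1 library and no test was run. Depth limits genes of a few CPM, and the 41 host cells limit folds of low genes there.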
